A study of Mus musculus with 3 samples.

Results

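The respiratory chain of mouse mitochondria is built from subunits encoded in 2 genomes, and the RNA of both was read here in the intestine of mouse pups from 3 groups. Members were chosen by symbol: every gene whose name begins with mt-, and every nuclear gene whose name begins as the subunits of complexes I to V do (Ndufa, Ndufb, Ndufc, Ndufs, Ndufv, the 4 Sdh genes, Uqcr, Cox4 to Cox8, Atp5). The rule uses no measured value. It took 106 of the 21983 genes in the table. Of these, 13 are encoded in mitochondrial DNA and 93 in the nucleus. The nuclear ones divide into 84 subunit genes (36 of complex I, 4 of complex II, 8 of complex III, 20 of complex IV and 16 of complex V) and 9 that the name pattern also caught, the assembly factors Ndufaf1 to Ndufaf8 and Atp5s. Ndufa4 and Ndufa4l2 were counted with complex IV, after where the proteins act and not after their names. Cox7a2l was counted there by its name.

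Complexes I and II pass electrons from NADH and succinate to coenzyme Q, complex III passes them on to cytochrome c, and complex IV hands them to oxygen. Complexes I, III and IV pump protons out of the mitochondrial matrix, and complex V, the ATP synthase, makes ATP as protons flow back. Mitochondrial DNA is transcribed as long precursors that are cut at transfer RNAs, so its genes share promoters while the levels of single messengers also depend on processing and stability. Nuclear subunits are transcribed gene by gene and imported, and in the gut the absorptive enterocytes and the muscle coat are both rich in mitochondria.

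The libraries were a control, a model of necrotizing enterocolitis (NEC), in which the gut of a newborn becomes inflamed and dies, and the same model with the compound PCI34051, an inhibitor of the histone deacetylase HDAC8. All mice were labelled wild type, and tissue was taken 96 h after the model began. Control pups were nursed by their dam and given PBS. NEC pups received PBS and, by gavage at 4 h intervals, 40 µl of 33% Esbilac formula. Every 12 h they also breathed 99.9% nitrogen for 100 s and were then kept for 10 min at 4 °C. PCI34051+NEC pups went through the same feeding, hypoxia and cold and took PCI34051 by mouth at 10 mg/kg each day for 5 days, starting the day before the model. The sources used here do not give strain, sex or exact age, nor how many pups went into a library.

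There was 1 library per group, so differences could not be set against a spread between replicates, p-values are absent, and the values describe 3 libraries, not 3 conditions. Total counts were 15076413 (control), 10650638 (NEC) and 16497580 (PCI34051+NEC). Levels are CPM, each count divided by its library's TMM-scaled total and put on a common scale, and where 3 values follow each other they are in the order control, NEC, PCI34051+NEC. Intervals are 95% intervals that cover counting error only. Genes that reached 1 CPM in either library of a comparison were counted as measured there, and higher or lower means a difference of 2-fold or more in log2(CPM + 1). The NEC library stood apart on that scale: 47.1% of 14627 measured genes were 2-fold away from control, and 50.6% of 14410 differed between PCI34051+NEC and NEC, against 13.1% of 13652 between PCI34051+NEC and control. The 12 enterocyte markers, all in the table and none at 0, summed to 46612, 21109 and 107232 CPM, most of it Apoa1 and Apoa4. The median log2 difference of the 12 was -1.04 in NEC against control, with 7 at least 2-fold lower and 1 higher, beside 22.9% and 24.2% of all genes. In PCI34051+NEC against control it was 0.36, with 5 higher, beside 6.55% of all genes. The 10 smooth muscle markers, none at 0, summed to 1626, 12116 and 1554 CPM. The genes of the Y chromosome Eif2s3y and Kdm5d were at 0 counts in the NEC library, against 345 to 1134 counts in the others, so the sex of the pups may differ and cannot be told apart from the group.

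The mitochondrially encoded genes need their sequence beside their counts, because part of the mitochondrial genome stands a second time, nearly letter for letter, in the nuclear genome. In the GENCODE M21 annotation of mm10 the copies are 7 unprocessed pseudogenes side by side on the minus strand of chr1:24611535-24616197, a block of 4663 bases, and none of the 7 is a row of the count table. The block runs from the end of mt-Co1 through mt-Co2, mt-Atp6, mt-Co3, mt-Nd3 and mt-Nd4l into mt-Nd4. The first 120 bases of mt-Co3 (subunit 3 of cytochrome c oxidase, chrM:8607-8726) and of its copy Gm28437 (chr1:24613852-24613971, minus strand) show what a read of this region meets.
mt-Co3: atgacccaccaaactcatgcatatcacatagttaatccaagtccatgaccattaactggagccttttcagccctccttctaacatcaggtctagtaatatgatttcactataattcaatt
Gm28437: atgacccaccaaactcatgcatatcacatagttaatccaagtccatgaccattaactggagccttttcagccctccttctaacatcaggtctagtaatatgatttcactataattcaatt
The 2 lines are identical, as are 783 bases of the 784 of mt-Co3 in 1 stretch. At the edges of the block lie mt-Co1 and mt-Nd4, shown with the shared side in capitals and the side outside the identical stretch in lower case. The stretches are bases 1007 to 1126 of mt-Co1 (chrM:6334-6453) and bases 817 to 936 of mt-Nd4 (chrM:10983-11102).
mt-Co1: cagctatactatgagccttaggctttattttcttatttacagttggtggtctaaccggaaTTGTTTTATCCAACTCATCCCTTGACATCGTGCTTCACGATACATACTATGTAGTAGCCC
mt-Nd4: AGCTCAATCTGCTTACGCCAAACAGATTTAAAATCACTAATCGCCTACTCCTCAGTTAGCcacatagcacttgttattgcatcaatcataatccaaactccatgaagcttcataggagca
In mt-Co1 the stretch identical with Gm29216 begins at base 1067 and runs to the end of the gene at base 1545. Gm29216 has 13 further bases outside this stretch, and Gm28438, the copy of mt-Nd3, has 3 outside its own. In mt-Nd4 the identical stretch covers bases 1 to 876 of 1378. Every 150-base window of each gene, the length of a read here, was searched among the transcripts of all other genes. Shared windows made up 99.4% of those in mt-Co2 and mt-Atp6, 99.8% in mt-Co3, 97% in mt-Nd3, 98% in mt-Nd4l, 59.2% in mt-Nd4 and 23.6% in mt-Co1. They made up 0% in mt-Nd1, mt-Nd2, mt-Nd5, mt-Nd6, mt-Cytb and mt-Atp8.

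The counts fell into 2 classes along the same border. The 7 genes mt-Nd1, mt-Nd2, mt-Co1, mt-Nd4, mt-Nd5, mt-Nd6 and mt-Cytb each had 14020 counts or more in every library, and the 6 others had 941 counts or fewer. Per kilobase of gene, mt-Co1 stood at 13868, 100468 and 12898 CPM per kb, while its neighbour mt-Co2 stood at 14.6, 126 and 14.8 CPM per kb. Both encode core catalytic subunits of complex IV and lie on the same precursor. mt-Atp8 is the exception among the low genes: it has no shared window among annotated transcripts and was still counted 0, 6 and 0 times. It is also short (204 bases) and shares its end with mt-Atp6, and the 233 bases between the nuclear copies of mt-Atp6 and mt-Co2 were not searched. How reads with more than 1 place in the genome were treated is not given in the sources used here. The levels of mt-Co2, mt-Atp8, mt-Atp6, mt-Co3, mt-Nd3 and mt-Nd4l are therefore given for comparison between libraries and not as the abundance of these messengers. The same limit holds for the shared part of mt-Nd4 (59.2% of windows) and of mt-Co1 (23.6%). Their levels, also per kb, and their counts relative to other genes may be too low by an unknown amount. The sums below are over all 13 genes, with nearly all of their counts from the 7 well-counted ones.

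**Figure D1:**
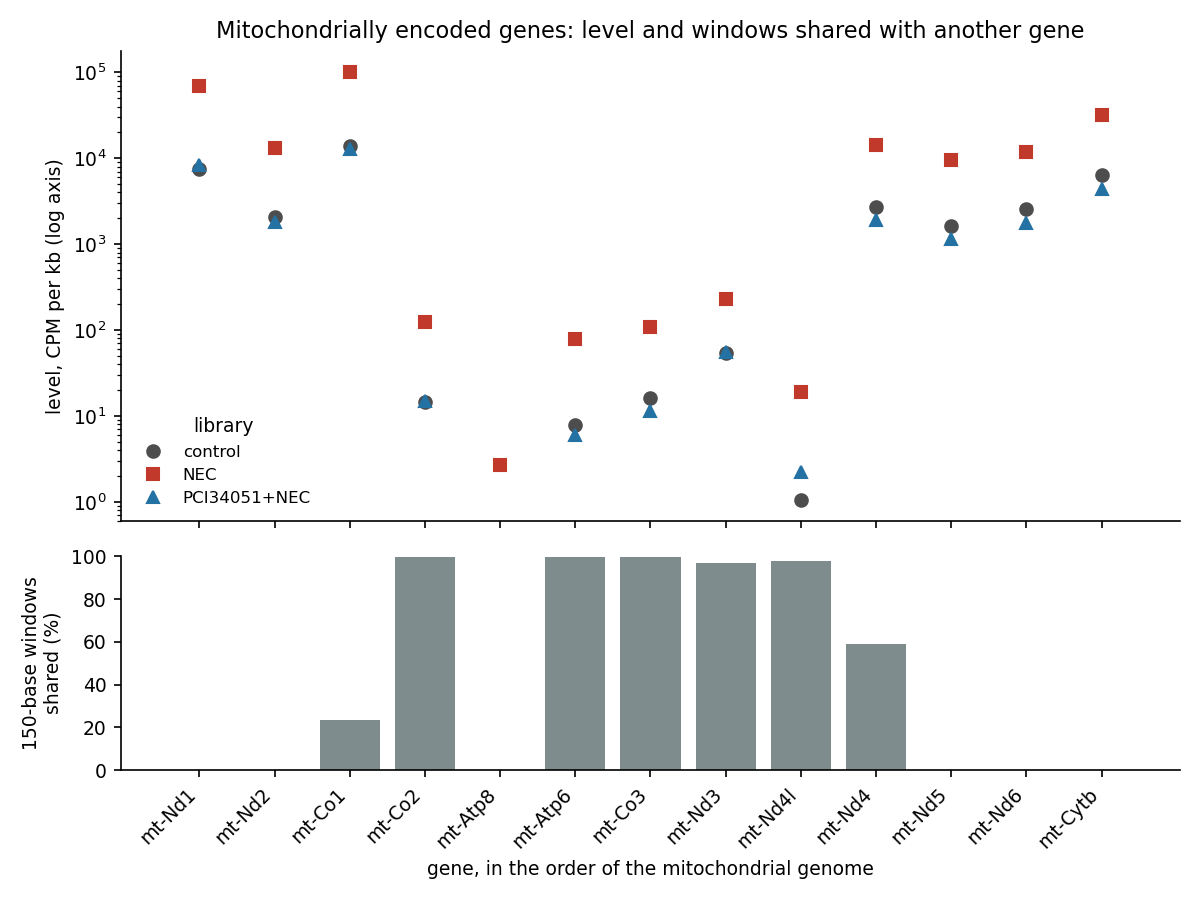
Level of each mitochondrially encoded gene in the 3 libraries, in CPM per kb on a log axis, in the order of the genes along mitochondrial DNA, with the share of windows that also occur in another gene below; values of 0 are not drawn. The genes from mt-Co2 to mt-Nd4l, including mt-Atp8 with no such window, lie far under the rest in each library, and the NEC points lie above the other points.

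The 13 genes took 4.88% of all counts in the control library (Wilson 95% interval 4.87 to 4.89%), 32.4% in the NEC library (32.41 to 32.47%) and 3.73% in the PCI34051+NEC library (3.72 to 3.74%). Their summed level was 46273, 315524 and 40469 CPM. That of NEC was 6.82-fold higher (95% interval 6.80 to 6.84) than control, and that of PCI34051+NEC was 7.80-fold lower (95% interval 7.78 to 7.82) than NEC. PCI34051+NEC stood at 0.875 (95% interval 0.872 to 0.878) times control. For each count of a nuclear subunit gene the control library held 4.55 mitochondrial counts, the NEC library 47.6 and the PCI34051+NEC library 3.80. The nuclear sum itself was lower in NEC, as given below. A share does not tell abundant RNA of one class from scarce RNA of the others, and in bulk tissue fewer cells of a type and less RNA per cell cannot be told apart.

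All 12 measured genes were at least 2-fold higher in NEC than in control, where 24.2% of all measured genes were. All 12 were at least 2-fold lower in PCI34051+NEC than in NEC, where 25.6% of all genes were. mt-Nd4l passed the filter only through the NEC library, and mt-Atp8 did not pass. None of the 11 genes measured between PCI34051+NEC and control was 2-fold apart, where 13.1% of all genes were.

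Complex I takes 7 of its subunits from mitochondrial DNA, all in the proton-pumping membrane arm. mt-Nd1, next to the coenzyme Q site, had 113392, 732020 and 121583 counts, or 7135, 66853 and 7987 CPM, and was 9.37-fold higher (95% interval 9.31 to 9.43) in NEC than in control. That is the largest ratio among the 7 well-counted genes. In PCI34051+NEC it was 8.37-fold lower than in NEC and 1.12 (95% interval 1.11 to 1.13) times control, a difference that turned to below control when libraries were scaled by total counts. mt-Nd2, also of the membrane arm, had 34520, 151050 and 28532 counts and 2172, 13795 and 1874 CPM. It was 6.35-fold higher (95% interval 6.28 to 6.43) in NEC and 7.36-fold lower in PCI34051+NEC. The NEC library was the highest of the 3 for both genes, by more than the difference between the others.

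mt-Nd4 and mt-Nd5, antiporter-like subunits at the far end of the membrane arm, had smaller NEC to control ratios than mt-Nd1 and mt-Nd2. mt-Nd4 stood at 3768, 19585 and 2604 CPM, 5.20-fold higher (95% interval 5.15 to 5.24) in NEC than in control and 7.52-fold lower in PCI34051+NEC than in NEC. mt-Nd5 stood at 2999, 17257 and 2080.5 CPM, 5.75-fold higher (95% interval 5.70 to 5.81) in NEC and 8.29-fold lower in PCI34051+NEC. In PCI34051+NEC both were below control, at 0.691 (95% interval 0.682 to 0.700) and 0.694 (95% interval 0.684 to 0.704) times its level.

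mt-Nd6 is the one protein gene read from the other strand, at chrM:13552-14070, and so belongs to a different precursor. It stood at 1334, 6202 and 921 CPM and was 4.65-fold higher (95% interval 4.58 to 4.72) in NEC and 6.73-fold lower in PCI34051+NEC. Because the strand setting is not given, reads of the opposite precursor over this gene cannot be told apart from its own. The remaining complex I genes were thinly counted. mt-Nd3, with 299, 878 and 296 counts, was 4.26-fold higher (95% interval 3.73 to 4.88) in NEC, the smallest ratio among the 12. mt-Nd4l, with 5, 62 and 10 counts, was 18-fold higher (95% interval 7.31 to 57.4), an interval so wide that it covers the ratio of mt-Nd1.

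mt-Cytb, cytochrome b, is the only mitochondrially encoded subunit of complex III and has no shared window. It had 117485, 397455 and 76577 counts and 7392, 36298 and 5031 CPM. NEC was 4.91-fold higher (95% interval 4.88 to 4.94) than control, and PCI34051+NEC 7.22-fold lower than NEC. PCI34051+NEC stood at 0.681 (95% interval 0.674 to 0.687) times control, the lowest such ratio among the 7 well-counted genes. The groups were ordered NEC, control, PCI34051+NEC, as they were for the other well-counted genes except mt-Nd1.

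For complex IV, mt-Co1 carries the haem and copper centre where oxygen is reduced. It had 340522, 1699644 and 303354 counts and 21426, 155223 and 19928 CPM, and per kb it was the highest of the 106 genes in each library. It was 7.24-fold higher (95% interval 7.22 to 7.27) in NEC than in control, 7.79-fold lower in PCI34051+NEC than in NEC, and 0.930 (95% interval 0.926 to 0.935) times control in PCI34051+NEC. mt-Co2, which takes electrons from cytochrome c, had 159, 941 and 154 counts, 8.59-fold higher (95% interval 7.25 to 10.2) in NEC and 8.49-fold lower in PCI34051+NEC. mt-Co3, a structural core subunit, had 202, 931 and 137 counts, 6.69-fold higher (95% interval 5.74 to 7.83) and 9.45-fold lower in the same comparisons. For complex V, mt-Atp6, part of the proton channel, had 85, 588 and 63 counts and was 10.0-fold higher (95% interval 7.99 to 12.8) in NEC and 13.0-fold lower in PCI34051+NEC. These genes, mt-Nd3 and mt-Nd4l are nearly all shared sequence, and the NEC to control ratios of the 5 ran from 4.26 to 18, beside 4.65 to 9.37 for the measured genes with no shared window.

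**Figure D2:**
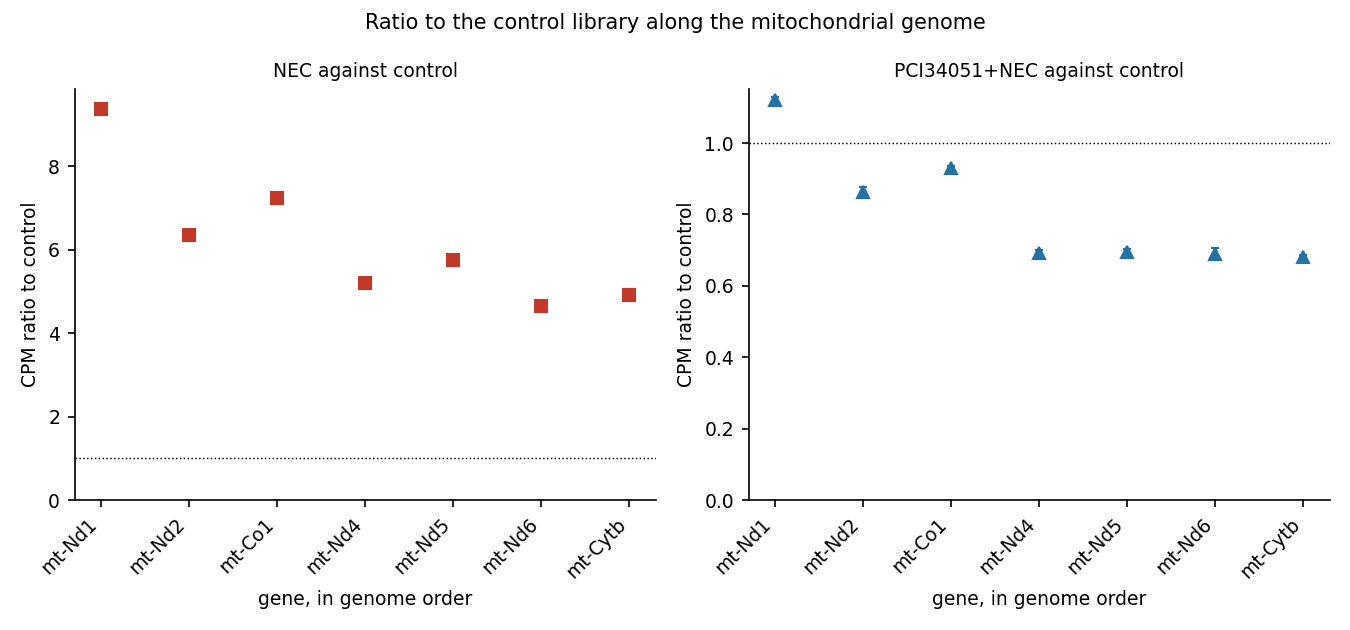
Ratio of NEC to control and of PCI34051+NEC to control for well-counted mitochondrially encoded genes with 95% counting intervals, in genome order. Points are the 7 well-counted genes in separate panels: NEC ratios lie between 4.65 and 9.37, and PCI34051+NEC ratios between 0.681 and 1.12, with only mt-Nd1 above the dotted line at 1.

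The makeup of the mitochondrial counts, which does not depend on scaling between libraries, also differed. mt-Co1 took 46.3%, 49.2% and 49.2% of them, mt-Nd1 15.4%, 21.2% and 19.7% and mt-Cytb 16%, 11.5% and 12.4%. Per count of mt-Cytb, which has no shared window, there were 0.965, 1.84 and 1.59 counts of mt-Nd1, with intervals of 0.957 to 0.973, 1.83 to 1.85 and 1.57 to 1.6 that do not overlap. For mt-Co1 the same ratio was 2.90, 4.28 and 3.96, and for mt-Nd2 0.294, 0.380 and 0.373. For mt-Nd4 it was 0.510, 0.540 and 0.518, for mt-Nd5 0.406, 0.475 and 0.414 and for mt-Nd6 0.180, 0.171 and 0.183. So the genes near the start of the precursor, mt-Nd1, mt-Nd2 and mt-Co1, were high relative to mt-Cytb in both libraries of the model, and mt-Nd4, mt-Nd5 and mt-Nd6 differed less. RNA integrity per library is not given, and whether it moves with this order was not tested.

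The 84 nuclear subunit genes did not follow the mitochondrial ones. Of these, 5 were listed at 0 in all 3 libraries. Cox7b2 and Cox8c are isoforms known from few tissues, but Uqcrc1, Ndufs3 and Atp5a1 encode core subunits that cells with mitochondria use, so a listed 0 for these is no measure of their level. In NEC against control 78 genes were measured, with a median log2 difference of -0.49, beside -0.03 over all measured genes. At least 2-fold lower were 17 of the 78 (21.8%), close to the 22.9% of all genes, and at least 2-fold higher were 5 (6.41%), beside 24.2%. One of those 5, Cox8b, passed the filter only through the NEC library. Below 0 lay 56 and above it 22. Between PCI34051+NEC and NEC 20 of 78 were higher (25.6%, beside 25.0% of all genes) and 8 lower (10.3%, beside 25.6%), with a median of 0.36 beside 0.01. Ndufa4l2, Cox4i2 and Cox8b, all among the 8, passed only through NEC. Between PCI34051+NEC and control none of 77 was 2-fold higher or lower, where 6.55% of all genes were each way, and 71 (92.2%) lay within 1.5-fold, beside 67.4% of all genes. The comparisons share libraries, so a low NEC value enters both of the first.

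The summed level of the nuclear subunit genes was 10179, 6632 and 10648 CPM, 1.53-fold lower (95% interval 1.52 to 1.55) in NEC than in control. Counted against nuclear genes alone, without the mitochondrial counts, they took 1.13%, 1.01% and 1.02%. The smooth muscle marker sum was higher in NEC and the enterocyte marker sum lower, as given above. The 7 markers of fibroblasts and matrix summed to 802, 2864 and 763 CPM and the 10 of enteric neurons and glia to 269.8, 472 and 215 CPM. The 5 of endothelium summed to 123, 214 and 118 CPM and the 9 of leukocytes to 87.4, 27.5 and 32.6 CPM. In NEC against control, 5 of 7 measured fibroblast and matrix markers were at least 2-fold higher and 0 lower. For enteric neurons and glia these were 7 and 1 of 9, the lower being Ret, at 198, 47.9 and 147 CPM. For endothelium they were 2 and 0 of 5, and for leukocytes 2 and 4 of 8, beside 24.2% and 22.9% of all genes. Some of the leukocyte markers passed the filter through 1 library only. The 6 hepatocyte markers summed to 2980, 1106 and 5827 CPM, with 4 at least 2-fold higher and 2 lower in NEC, beside the same shares of all genes. Ahsg and Serpina1a passed the filter only through NEC. Alb stood at 9.31, 100 and 0.394 CPM and Apob, most of each sum, at 2614, 920 and 5615 CPM. The 7 erythroid markers summed to 116, 183 and 247 CPM, with 1 of 5 measured ones higher and 0 lower in NEC. The part of any of these cells in the subunit values was not tested. Among the measured genes 18 share some read-length window with another annotated gene. Their median in NEC against control was -0.23, and that of the 60 with no such window was -0.53. Annotated exons of other genes also overlap some members, Atp5o over 48.6% of its length, Ndufb6 over 39.0% and Uqcrc2 over 26.6%.

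**Figure D3:**
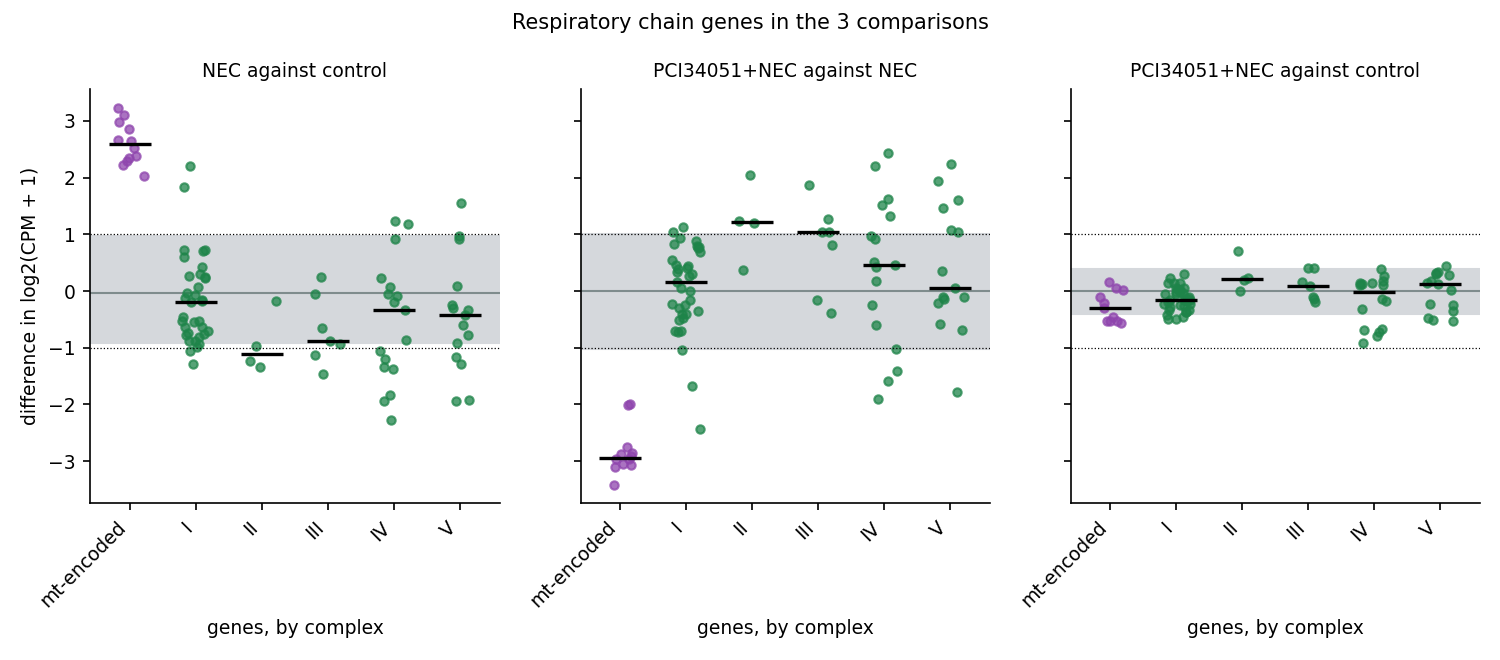
Log2 difference on log2(CPM + 1) of each measured member in NEC against control, PCI34051+NEC against NEC and PCI34051+NEC against control, by complex and by genome, with medians as black bars, the middle of all measured genes (25th to 75th percentile) as a grey band and dotted lines at 2-fold. The 12 measured mitochondrially encoded genes all lie above 2 in the first comparison, the medians of the 5 nuclear complexes lie between -1.10 and -0.19, and no nuclear subunit gene lies beyond 1 either way in the third.

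Complex II, succinate dehydrogenase, is wholly nuclear and links the chain to the tricarboxylic acid cycle. All 4 genes were below control in NEC and above NEC in PCI34051+NEC, with medians of -1.10 and 1.22. At least 2-fold lower in NEC were 2 of the 4, beside 22.9% of all genes, and 3 were at least 2-fold higher in PCI34051+NEC than in NEC, beside 25.0%. Sdha, the flavoprotein that oxidises succinate, stood at 253, 107 and 254 CPM, 2.36-fold lower (95% interval 2.21 to 2.52) in NEC. Sdhb, the iron-sulphur subunit, stood at 182, 160.5 and 208 CPM, and NEC was 1.13-fold lower than control. Sdhc and Sdhd anchor the enzyme in the membrane. Sdhc stood at 156, 79.3 and 184 CPM and Sdhd at 200.1, 78.4 and 327 CPM, 1.97-fold lower (95% interval 1.82 to 2.13) and 2.55-fold lower (95% interval 2.37 to 2.76) in NEC. Sdhd was the one nuclear subunit gene more than 1.5-fold above control in PCI34051+NEC and was 1.64-fold higher (95% interval 1.56 to 1.71) there. No read-length window of the 4 genes occurs in another annotated gene.

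For complex III, 7 of the 8 nuclear genes were measured and had medians of -0.88 in NEC against control and 1.03 in PCI34051+NEC against NEC. NEC was 2-fold lower for 2, beside 22.9% of all genes, and PCI34051+NEC 2-fold above NEC for 4, beside 25.0%. Uqcrc2, a core subunit of the matrix side, stood at 111, 39.5 and 146 CPM, 2.80-fold lower (95% interval 2.52 to 3.12) in NEC. It shares 20.5% of its windows with other genes. Uqcrh, the hinge subunit that meets cytochrome c1, stood at 232, 105 and 217 CPM and had the highest level per kb of the complex in the control, 425, 192 and 397 CPM per kb. It was 2.21-fold lower (95% interval 2.07 to 2.36) in NEC. The Rieske iron-sulphur protein Uqcrfs1 stood at 169, 91.4 and 222 CPM and was 2.43-fold higher in PCI34051+NEC than in NEC. The small subunit Uqcr10, next highest per kb, stood at 133, 84.8 and 149 CPM. Uqcrb and Uqcr11, also small subunits, stood at 61.0, 72.5 and 55.2 CPM and 66.8, 64.6 and 57.9 CPM. Only Uqcrb of the 7 was above control in NEC, by less than 2-fold, beside the 4.91-fold of mt-Cytb, the mitochondrially encoded partner in the same complex.

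Complex IV held the nuclear subunit gene with the largest fold below control. Of 20 genes 17 were measured, with 7 at least 2-fold lower and 2 higher in NEC (41.2% and 11.8%, beside 22.9% and 24.2% of all genes), a median of -0.33 and a summed level of 2766, 1447 and 2837 CPM. Ndufa4, now assigned to complex IV, stood at 147, 29.4 and 162 CPM, 4.99-fold lower (95% interval 4.44 to 5.62) in NEC than in control and 5.52-fold higher (95% interval 4.91 to 6.22) in PCI34051+NEC than in NEC. It lies at chr6:11900292-11907497 on the minus strand. Cox7a2l, which helps complexes III and IV form supercomplexes, stood at 363, 93.5 and 291 CPM, 3.88-fold lower (95% interval 3.63 to 4.15) in NEC. Cox5a, a nuclear subunit of the matrix side, stood at 141, 39.0 and 184 CPM, 3.62-fold lower (95% interval 3.26 to 4.02) in NEC and 4.72-fold higher in PCI34051+NEC. In all 3 genes the control and PCI34051+NEC libraries were within 1.5-fold of each other and NEC stood apart below them. Annotated exons of another gene overlap 41.7% of Cox5a, and the counting of such reads is not known.

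The most abundant subunit genes of the complex per kb were Cox4i1, an early-assembling subunit that binds ATP, and Cox6a1. Cox4i1 had 916, 396 and 989 CPM per kb, and its level of 701, 303 and 756 CPM was 2.31-fold lower (95% interval 2.22 to 2.40) in NEC. Cox6a1 had 619, 339 and 665 CPM per kb and a level of 353, 194 and 379.9 CPM, 1.83-fold lower in NEC. Others differed little between libraries: Cox6c stood at 186, 178 and 202 CPM, Cox5b at 121, 127 and 107 CPM and the X-linked Cox7b at 101, 87.9 and 121 CPM. Cox7c, at 21.2, 25.1 and 11.9 CPM, was 2.11-fold lower in PCI34051+NEC than in NEC and shares 24.6% of its windows with other genes.

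Complex IV is known for pairs of a general and a tissue-restricted isoform, and the share of the restricted isoform in the counts of its pair was compared within each library. Ndufa4l2, a paralogue known to be induced in hypoxia and in vascular smooth muscle, took 1.40%, 16.8% and 0.524% of its pair with Ndufa4, with Wilson 95% intervals of 0.996 to 1.95%, 13.4 to 20.8% and 0.306 to 0.894%. The NEC interval lies above both others. Its own counts were 33, 65 and 13, or 2.08, 5.94 and 0.854 CPM, 2.86-fold higher (95% interval 1.85 to 4.49) in NEC beside the 4.99-fold lower Ndufa4. Cox4i2, the isoform linked to hypoxia and lung, took 0.188%, 1.10% and 0.0608% of its pair on 21, 37 and 7 counts. The heart and muscle isoforms were rare. Cox8b had 2, 18 and 0 counts and Cox6a2 0, 6 and 0 counts. Shares of 0 on Cox6a2 and Cox8b in PCI34051+NEC allow up to 0.0519% and 0.0720% at a limit of 3 counts. Cox7a1, the muscle partner of Cox7a2, took 4.56%, 3.45% and 1.89% on 87, 17 and 37 counts, with overlapping intervals for control (3.71 to 5.59%) and NEC (2.16 to 5.45%). Cox6b2, known from testis, took 13.5%, 15.6% and 7.76%, with intervals for control (12.3 to 14.7%) and NEC (14.0 to 17.3%) that overlap and one for PCI34051+NEC that lies below both (6.90 to 8.72%).

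Some markers of striated muscle moved with the NEC library as well, and others differed little. The 12 fixed markers summed to 29.1, 270.0 and 44.3 CPM, most of the NEC sum being Tnnt2. All 8 measured ones were above control in NEC, 4 of them at least 2-fold, beside 24.2% of all genes. Myh3, Myh7 and Tnnt3 passed the filter only through NEC and so could only come out above control. Of those not measured, Myh8 lay below control and Actc1, Actn3 and Myh6 above it. The 4 at least 2-fold higher were the troponins Tnnt2, at 17.7, 224 and 30.3 CPM, Tnni3, at 1.01, 16.8 and 0.985 CPM, and Tnnt3, at 0.378, 7.76 and 0.920 CPM, and the myosin Myh7, at 0.881, 6.85 and 1.05 CPM. The same 4 were at least 2-fold lower in PCI34051+NEC than in NEC, beside 25.6% of all genes. Tnni3 and Tnnt3 passed there only through NEC. Ckm, the muscle creatine kinase, stood at 3.96, 5.48 and 3.74 CPM and Acta1, skeletal actin, at 1.13, 1.46 and 0.657 CPM. The 9 brown fat markers summed to 24.2, 126 and 95.8 CPM. All 5 measured ones were above control in NEC, 4 of them at least 2-fold, beside 24.2% of all genes. Adipoq, Plin1 and Plin5 passed the filter only through NEC and so could only come out above control. Most of the NEC sum was Fabp4, a fatty acid binding protein of fat cells and endothelium, at 17.4, 110.0 and 48.8 CPM, and most of the rest was Ppara, a regulator of fatty acid oxidation that enterocytes also use, at 5.73, 11.1 and 46.3 CPM. Adipoq had 0, 14 and 0 counts, Plin1 0, 20 and 0, Plin5 1, 13 and 0, and Ucp1, which defines brown fat, 1, 0 and 5. Ucp1 was not measured, nor were Cidea, at 8, 2 and 5 counts, Dio2, at 7, 6 and 0, and Elovl3, at 0 in each library. The part of muscle and fat cells in the isoform shares was not tested.

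**Figure D4:**
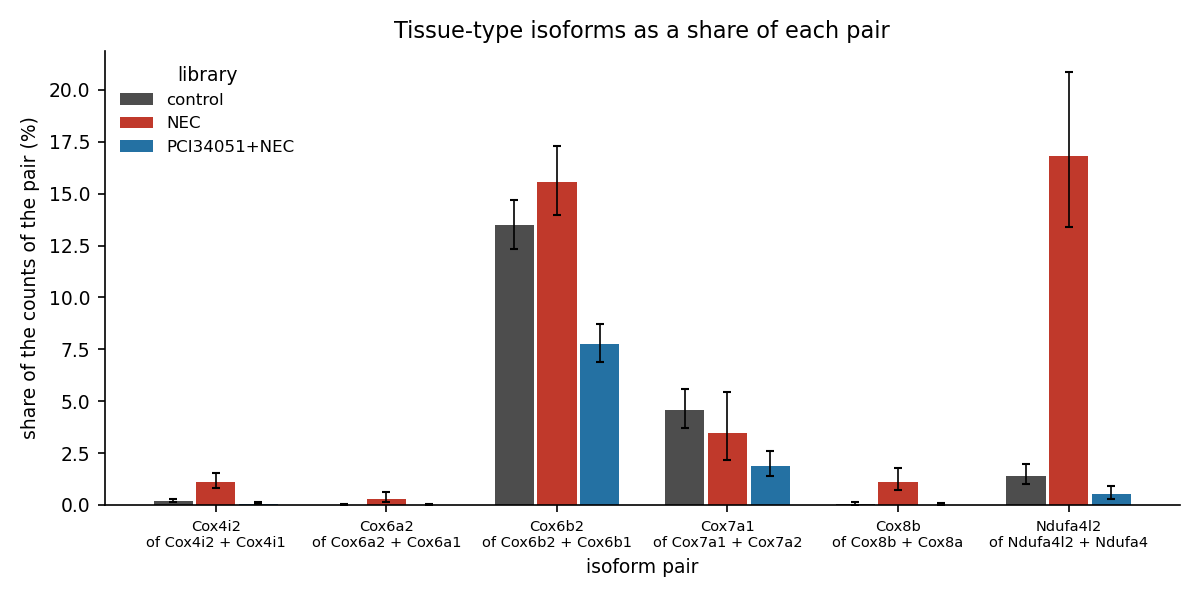
Share of the tissue-restricted isoform in the counts of its pair for 6 pairs of complex IV in the 3 libraries, as bars with Wilson 95% intervals. Ndufa4l2 stands at 16.8% in the NEC library against 1.40% in control and 0.524% in PCI34051+NEC, and Cox7a1 is highest in the control library.

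Complex I is the largest, and its 35 measured nuclear genes lay nearest to control as a class, with a median of -0.19 in NEC against control and summed levels of 2683, 2485 and 2469.7 CPM. The NEC sum was 0.926 (95% interval 0.912 to 0.940) times control, beside 0.523 for complex IV. Counted against nuclear genes alone, complex I took 0.297%, 0.378% and 0.237%, so with that denominator NEC stood above control, and complex IV took 0.307%, 0.220% and 0.272%. At least 2-fold apart in NEC were 2 lower and 2 higher genes (5.71% each, beside 22.9% and 24.2% of all genes). Ndufb6, an accessory membrane subunit, stood at 11.2, 4.02 and 9.92 CPM, 2.79-fold lower (95% interval 1.99 to 3.97), with 21.2% of its windows shared. Ndufa1, an X-linked accessory subunit needed for assembly, stood at 43.4, 20.3 and 42.8 CPM, 2.14-fold lower (95% interval 1.84 to 2.50). Going the other way, the accessory subunit Ndufb2 stood at 2.33, 14.2 and 1.84 CPM, 6.12-fold higher (95% interval 4.25 to 9.01) in NEC. Ndufb4 stood at 3.71, 15.7 and 4.2 CPM, 4.23-fold higher (95% interval 3.13 to 5.79), with 29.3% of its windows shared. For all 4 genes PCI34051+NEC was within 1.5-fold of control. The other X-linked subunit gene of the complex, Ndufb11, stood at 115, 109.5 and 113 CPM.

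Per kb the highest complex I genes in the control were the accessory subunits Ndufa6, at 319, 172 and 331 CPM per kb, and Ndufa2, at 224, 154 and 173 CPM per kb. Ndufa6 was 1.85-fold lower in NEC than in control, and Ndufa2 1.45-fold lower. The core subunits that carry electrons lay on both sides of control in NEC. Ndufs1, the largest iron-sulphur subunit, stood at 80.0, 77.8 and 98.2 CPM, and Ndufv2, of the NADH-oxidising module, at 111, 137 and 107 CPM. Ndufv1, which binds NADH, stood at 110.4, 75.3 and 122 CPM and was 1.46-fold lower. Ndufa5, of the same arm, stood at 53.3, 88.4 and 42.3 CPM, 1.66-fold higher (95% interval 1.51 to 1.82) in NEC and 2.09-fold lower (95% interval 1.89 to 2.31) in PCI34051+NEC than in NEC. Ndufa3 and Ndufa13, the lowest of the complex in PCI34051+NEC against control, stood at 109, 95.4 and 77.5 CPM and 113, 134 and 80.6 CPM.

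In complex V 15 of 16 genes were measured, with a median of -0.42, 4 at least 2-fold lower and 1 higher in NEC (26.7% and 6.67%, beside 22.9% and 24.2% of all genes). The catalytic beta subunit Atp5b stood at 789.8, 353 and 1077 CPM and the gamma subunit Atp5c1, the rotor, at 339, 139 and 383 CPM, 2.24-fold lower (95% interval 2.16 to 2.32) and 2.44-fold lower (95% interval 2.31 to 2.59) in NEC. Atp5f1, the b subunit of the stalk, stood at 230.3, 59.5 and 284 CPM, 3.87-fold lower (95% interval 3.56 to 4.22) in NEC and 4.78-fold higher in PCI34051+NEC. All 3 were lowest in NEC and highest in PCI34051+NEC. Atp5d, the delta subunit that joins gamma to the membrane ring, stood at 306, 326 and 339 CPM and so at a like level in each library.

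The ring of subunit c is encoded by 3 genes for 1 mature protein. Atp5g3, the most abundant of them and the highest of the complex per kb (525, 137 and 532 CPM per kb), stood at 379, 99.3 and 385 CPM, 3.82-fold lower (95% interval 3.58 to 4.08) in NEC. Atp5g1 stood at 49.8, 40.5 and 34.8 CPM and Atp5g2 at 2.08, 5.02 and 2.76 CPM. Of Atp5g2, 85.2% of the windows occur in other genes. Atp5h, the d subunit of the stalk, stood highest of the complex in NEC relative to control, at 51.2, 152 and 43.6 CPM, 2.97-fold higher (95% interval 2.73 to 3.24) than control and 3.49-fold lower (95% interval 3.19 to 3.82) in PCI34051+NEC than in NEC, with 16.9% of its windows shared. Atp5j and Atp5o, the coupling factor and the subunit that oligomycin sensitivity is named for, stood at 109, 81.3 and 75.4 CPM and 141, 82.4 and 176 CPM.

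**Figure D5:**
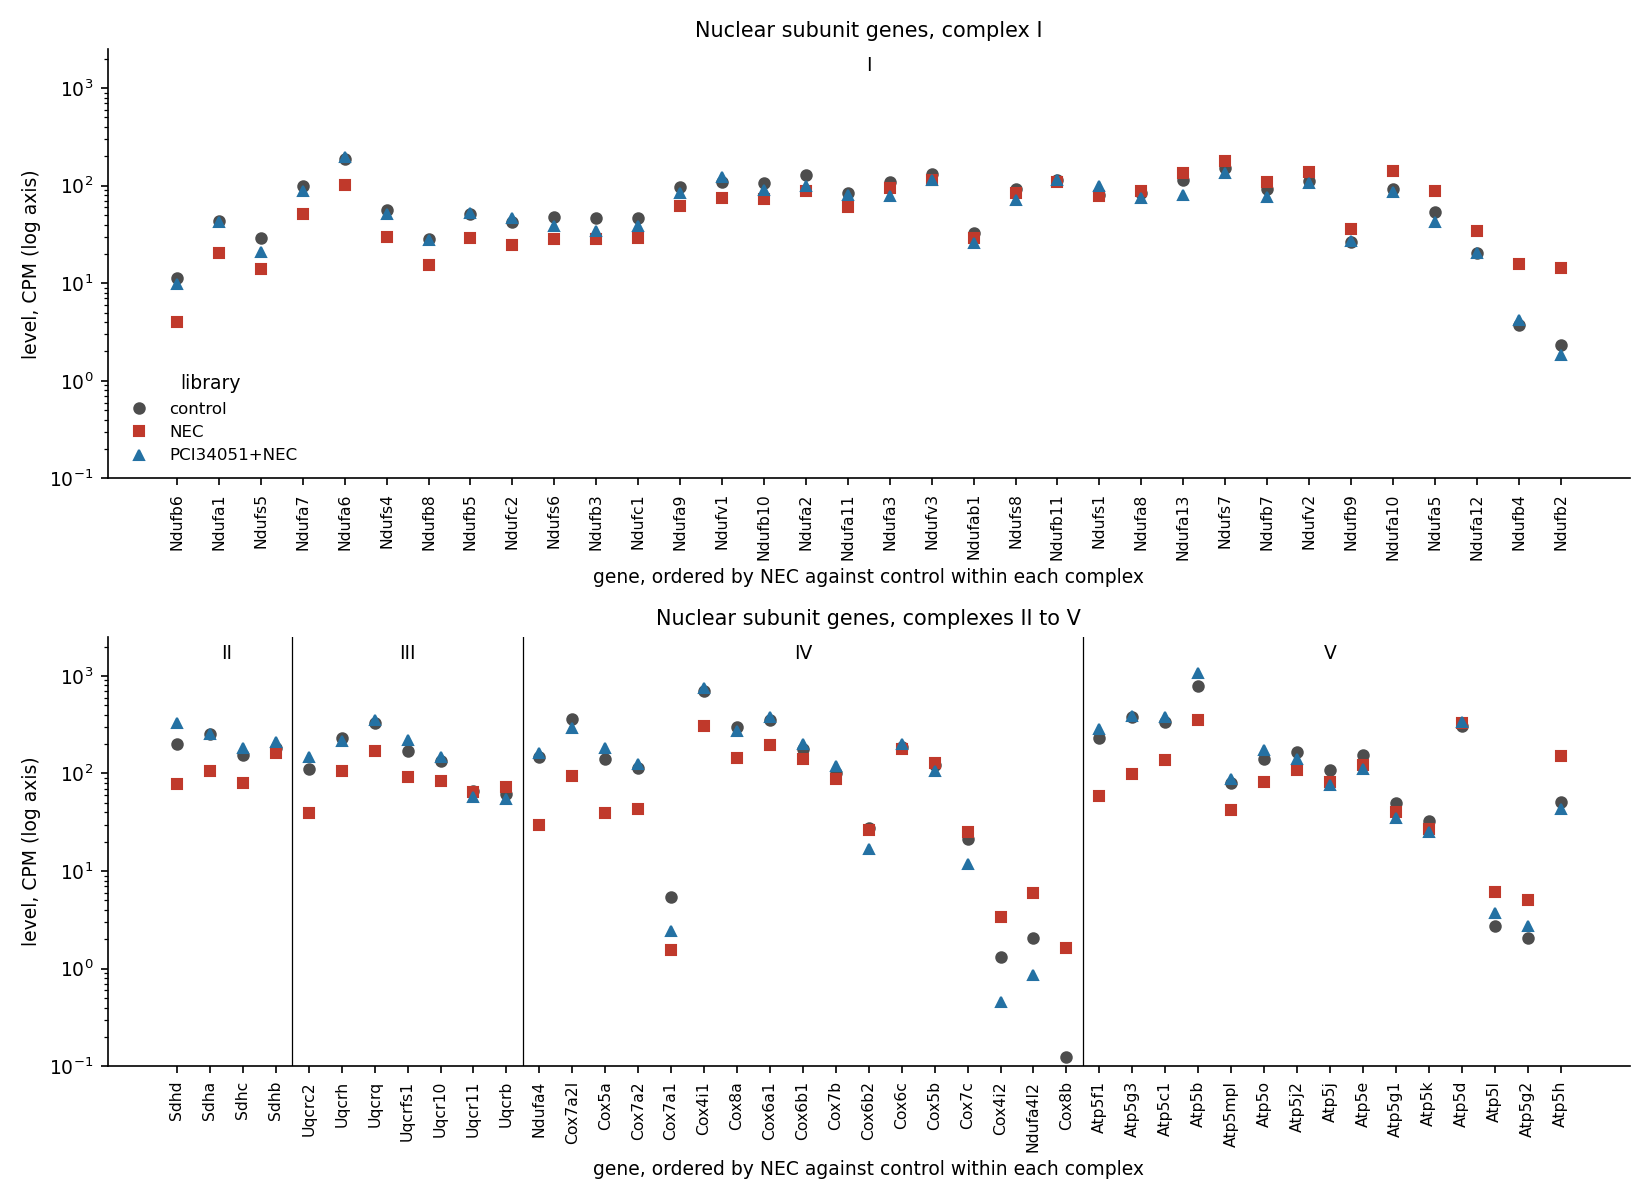
Level in CPM, on a log axis, of nuclear subunit genes in the 3 libraries, ordered within each complex by NEC against control; values of 0 are not drawn. Control and PCI34051+NEC points mostly lie close together, with NEC below them for Ndufa4, Cox7a2l, Cox5a, Atp5f1 and Atp5g3 and above them for Ndufb2, Ndufb4 and Atp5h.

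The median of the 9 assembly and associated factors was 0.14 in NEC against control, with 4 at least 2-fold lower and 1 higher, beside 22.9% and 24.2% of all genes. Ndufaf4, which acts early in complex I assembly, stood at 5.35, 22.3 and 8.93 CPM, 4.17-fold higher (95% interval 3.24 to 5.40) in NEC. Ndufaf5, an enzyme that modifies Ndufs7, stood at 5.47, 10.9 and 2.30 CPM. Atp5s, also known as factor B, and the late assembly factor Ndufaf2 stood at 21.3, 9.22 and 13.1 CPM and 6.92, 2.74 and 3.61 CPM. Ndufaf8 stood at 25.6, 12.0 and 23.8 CPM and Ndufaf1, which acts on the membrane arm, at 12.1, 5.57 and 10.6 CPM.

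Nuclear respiratory chain genes are known for promoters that bind the transcription factor NRF1 and ETS factors such as GABP, so the 250 bases before the start given by RefSeq (GRCm38.p6), the first one listed for a gene, were searched. Such a window was found for 67 of the 84 genes. The GENCODE M21 model of the gene reaches further upstream in 42 of these, so that the window overlaps it and can hold transcribed sequence, and 25 windows lie wholly before it. Some of the 25 also overlap no annotated exon of another gene. Among these, genes above a set level with no shared read-length window were ranked by NEC against control. The 2 lowest, Atp5g3 and Cox5a, both more than 3-fold lower in NEC, are shown, and the 2 highest, Ndufv2 and Ndufs8, are not. The windows shown lie at chr2:73911327-73911576 on the minus strand and chr9:57520982-57521231 on the plus strand, written 5′ to 3′ towards the gene. Neither holds an NRF1, ETS or YY1 match, so no base is in capitals.
Atp5g3: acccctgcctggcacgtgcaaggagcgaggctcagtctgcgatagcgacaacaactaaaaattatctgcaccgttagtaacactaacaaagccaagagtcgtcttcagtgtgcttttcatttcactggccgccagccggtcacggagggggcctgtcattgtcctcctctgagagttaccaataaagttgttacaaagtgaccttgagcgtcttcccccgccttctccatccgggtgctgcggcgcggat
Cox5a: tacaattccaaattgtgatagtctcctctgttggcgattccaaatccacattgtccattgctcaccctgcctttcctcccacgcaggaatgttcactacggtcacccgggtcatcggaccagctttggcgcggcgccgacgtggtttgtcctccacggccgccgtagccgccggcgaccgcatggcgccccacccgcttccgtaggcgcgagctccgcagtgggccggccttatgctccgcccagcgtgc
The NRF1 motif searched, on both strands as were the others, was GCGCA, then any base, then GCGC. It was in 12 of the 67 windows (17.9%), beside 3.86% of the 27025 windows of all genes in the table. The ETS motif CCGGAAG was in 11 (16.4%), beside 7.05% of all, and the YY1 motif AAGATGGC in 0, beside 1.59%. Of the 25 windows wholly before the GENCODE gene, 2 held the NRF1 motif and 3 the ETS motif. Among the 14 windows of genes at least 2-fold lower in NEC, NRF1 matches stood in 2 and ETS matches in 3. Among the 17 of genes above control they stood in 5 and in 3. A match is a description of the sequence, and these counts are too small to set the classes apart. Nrf1 itself stood at 17.6, 46.1 and 24.5 CPM, Gabpa, the ETS subunit of GABP, at 34.3, 17.7 and 52.2 CPM and Yy1 at 105, 59.7 and 139 CPM. Pprc1, a co-activator of NRF1, stood at 5.98, 31.1 and 6.11 CPM. Of the 10 measured regulators of mitochondrial biogenesis, 2 were at least 2-fold higher and 1 lower in NEC, beside 24.2% and 22.9% of all genes. In PCI34051+NEC 5 were higher and 1 lower than in NEC, beside 25.0% and 25.6%.

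The machinery that copies and reads mitochondrial DNA showed both directions. Of 18 measured genes NEC was 2-fold or more above control for 4 and below it for 5, close to the 24.2% and 22.9% of all genes, with a median of -0.36. Polrmt, the mitochondrial RNA polymerase, stood at 22.4, 110.4 and 27.3 CPM, and Ssbp1, which coats single-stranded mitochondrial DNA, at 19.3, 58.5 and 12.5 CPM, both highest in NEC. Polg2, the accessory subunit of the DNA polymerase, stood at 7.17, 1.10 and 8.74 CPM and the elongation factor Tefm at 5.73, 1.55 and 4.47 CPM, both lowest in NEC. Tfam, which packages mitochondrial DNA and starts its transcription, stood at 31.6, 23.5 and 29.6 CPM. Of 16 measured genes of mitochondrial RNA processing and decay, 5 were higher (31.2%) and 1 lower (6.25%). Fastk, which acts on the mt-Nd6 messenger, stood at 61.2, 335 and 57.0 CPM, its relatives Fastkd1 at 4.84, 21.2 and 4.14 CPM and Fastkd5 at 8.18, 1.37 and 7.69 CPM, and Slirp, which protects mitochondrial messengers, at 21, 10.4 and 14.1 CPM.

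Around the chain, the median of the 17 genes of the tricarboxylic acid cycle and pyruvate dehydrogenase was -0.90 in NEC against control, with 6 at least 2-fold lower and 0 higher, beside 22.9% and 24.2% of all genes. In PCI34051+NEC against NEC it was 0.90, with 7 higher and 0 lower, beside 25.0% and 25.6%. Suclg1 and Sucla2, subunits of succinyl-CoA ligase one step before complex II, stood at 150.3, 37.1 and 158 CPM and 66.8, 20.9 and 96.8 CPM. Idh3a, of isocitrate dehydrogenase, was the highest relative to control, at 44.2, 61.7 and 57.9 CPM. Of 8 measured electron carriers and quinone-linked enzymes 2 were higher (25%) and 3 lower (37.5%) in NEC. Cycs, cytochrome c, stood at 3.78, 16.6 and 4.53 CPM, and Sqor, which oxidises sulphide, at 112, 29.9 and 119.6 CPM. Etfa, which brings electrons from fatty acid oxidation, stood at 132, 41.6 and 199 CPM. Etfb, of the same list, went the other way from Etfa, at 4.03, 16.2 and 2.89 CPM. Atpif1, the inhibitor of complex V, stood at 199, 64.9 and 159 CPM and Ucp2, a carrier of the uncoupling protein family, at 81.3, 149 and 162 CPM.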

How the data were processed

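RNA from mouse intestine was sequenced in 3 libraries, 1 per group, as 150 bp paired-end reads, per the labels' protocols. The authors deposited raw read counts, with a row for each gene symbol, in 1 table. The genome build named is mm10, per the submitters' processing notes; the sources used here do not give the aligner, annotation, strand setting, RNA selection or filters. The control and NEC columns matched their samples by name. The third column's name does not match its sample letter for letter and was assigned as the only one naming an inhibitor, and all PCI34051+NEC values depend on this. No column was unused.

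Totals were 10650638 to 16497580 counts. Without molecular identifiers, PCR reads cannot be counted as independent molecules, and the intervals show counting error alone. Scaling used TMM from edgeR 4.0.16 under R 4.3.3, with factors of 1.05, 1.03 and 0.923, and log2 differences used log2(CPM + 1), whose pseudocount of 1 makes those of low genes too small. Ratios are plain CPM ratios with exact conditional binomial 95% intervals, and shares have Wilson intervals. Gene identifiers and positions came from GENCODE M21, which held all 106 members, promoters from RefSeq GRCm38.p6. Lengths are those of the principal transcript. Read-length windows were compared among annotated transcripts. The procedure was tested on simulated data.

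The members and lists were chosen with earlier results of these data known. Named were every mt- gene, the 4 Sdh genes, the isoform pairs, per complex the 2 genes with the highest level per kb in the control and, per comparison, the 2 largest differences each way where the higher library had 5 CPM or more, and likewise up to 2 genes each way of each pathway list; not all of these are described, and 1 member's own values are not reported here. Atp5c1, Atp5d, Cox5b, Cox6c, Ndufa5, Ndufb11, Ndufv1, Ndufv2, Ndufaf1, Ndufaf8, Tfam and the marker genes given singly were chosen after their values were seen. The alternatives tried were total counts, size factors from DESeq2 1.42.0, scaling that left out the mitochondrially encoded genes, a pseudocount of 0.25 or of 4, a minimum of 5 CPM or none, a 1.5-fold threshold, thinning to the smallest library and removal of the GC content and length trend. Leaving out members with shared windows was added after the data were seen, in place of a planned comparison of windows unique in the genome, which was not run. Python 3.11.15 was used, with scipy 1.17.1, pandas 2.3.3, numpy 2.4.6 and, for figures, matplotlib 3.10.9.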

Additional observations from a re-analysis of the deposited data

How the results depend on the processing

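No replicate could be left out and no test made with 1 library per group. No paired analysis was possible because each group has 1 library and no test was run. Of the values recomputed with other settings, 93 were called the same, 23 moved and 1 reversed. Without members that share windows 7 were called the same and 5 moved. Same means within the counting interval for a summed level and within 1.5 times for a count of genes. For a median it means within the median distance from centre to end of the counting intervals of single genes, which is no interval of the median itself. Some values could not change. The filter and the fold threshold do not enter the summed level, and the fold threshold does not enter the medians. The log2 difference of the summed mitochondrially encoded level, NEC against control, was 2.77 and became 2.78 with DESeq2 size factors, 2.73 with total counts, 2.76 with scaling without the mitochondrially encoded genes and 2.74 without members that share windows. PCI34051+NEC against NEC it was -2.96, and -3.12, -2.95 and -2.97 under the last 3 of these. PCI34051+NEC against control it was -0.19, and -0.18 with DESeq2, -0.39 with total counts and -0.23 without shared windows. Total counts moved the median of all genes by -0.14 (PCI34051+NEC against NEC) and -0.18 (against control), and relative to that shift changed the nuclear subunit medians little: 0.36 became 0.21 and -0.06 became -0.25. After removal of a trend with GC content and length they were 0.51 and 0.066, the latter a change of sign, and the cause was not tested. That alternative gives no value for the summed level. With no filter, the median in NEC against control was -0.33 in place of -0.49.

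Counts of nuclear subunit genes moved as follows. Higher in NEC than control (5): 8 with a pseudocount of 0.25, 3 with one of 4, 12 at 1.5-fold and 3 without shared windows. Lower in NEC than control (17): 36 at 1.5-fold. Lower in PCI34051+NEC than NEC (8): 4 with a pseudocount of 4, 14 at 1.5-fold, 5 with the GC and length trend removed and 5 without shared windows. Against control (0 each way), 1 was higher at 1.5-fold (Sdhd), and 1 was lower with total counts (Cox7a1), 3 with a pseudocount of 0.25 (Cox4i2, Cox7a1, Ndufa4l2), 5 at 1.5-fold (these 3, Cox6b2 and Cox7c) and 1 after thinning (Cox4i2). Depth limits the genes under 10 CPM, mt-Nd4l and the rare isoforms among them.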

Other observations

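Other mitochondrial lists were read in the same way, beside 24.2% of all measured genes 2-fold or more above control in NEC and 22.9% below it. By name (Mrpl and Mrps), 75 measured genes were taken as mitochondrial ribosomal protein genes. The name does not show that each protein is part of the ribosome. NEC was 2-fold or more above control for 6 of the 75 (8%) and below it for 13 (17.3%), with a median log2 difference of -0.20. Mrps36 stood at 7.80, 0.457 and 5.12 CPM (control, NEC, PCI34051+NEC) and Mrpl46 at 26.0, 5.11 and 18.4 CPM. Of 35 measured assembly factors outside the name pattern, 3 were higher (8.57%) and 14 lower (40%) in NEC, with a median of -0.70. In PCI34051+NEC 12 were higher and 6 lower than in NEC (34.3% and 17.1%, beside 25.0% and 25.6% of all genes). Coa4, a complex IV assembly factor, stood at 43.4, 5.11 and 22.3 CPM, and Ttc19, of complex III, at 26.7, 78.8 and 29.3 CPM. Of 11 genes of coenzyme Q synthesis, 1 was higher (9.09%) and 2 lower (18.2%) in NEC. Pdss1, which starts the side chain, stood at 3.46, 16.1 and 5.12 CPM and Coq9 at 85.3, 26.1 and 92.6 CPM.

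Of 16 measured carriers, porins and import genes, 2 were higher (12.5%) and 4 lower (25%) in NEC, beside the same 24.2% and 22.9%. Tomm20, a receptor of the import pore, stood at 104, 33.2 and 117 CPM. Slc25a4, the ADP/ATP carrier of heart and muscle, stood at 48.1, 174 and 52.6 CPM, highest in the NEC library, as was the smooth muscle marker sum (1626, 12116 and 1554 CPM). The part of smooth muscle in the Slc25a4 value was not tested.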
